A study of Mus musculus with 6 samples.

Results

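LIM domain proteins of the muscle cytoskeleton were examined in thoracic aortas with and without TGF-β receptors in smooth muscle cells (SMCs). The set held 10 of the 52636 genes of the deposited table, and each was found in it by its Ensembl identifier: Csrp1, Csrp2, Csrp3, Crip1, Crip2, Pdlim3, Pdlim5, Pdlim7, Fhl1 and Fhl2. The family was picked from the measured values of the same comparison, in which Csrp2 stood out, so the differences of these 10 genes between the groups are given as a description, with no p-value. Whether a member met the rule for a call is stated in the same sense and supports nothing further. All 10 genes passed the filter on low counts. Csrp2, Crip1 and Pdlim7 were called, all 3 lower in KO.

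To see how SMC receptor loss alters the transcripts of the wall, bulk RNA-seq was performed on total RNA of whole thoracic aortas from mice 12 weeks of age. The 4 WT libraries came from untreated C57BL/6J mice. The 2 KO libraries came from Tgfbr1/2iSMCKO mice, which carried floxed alleles of Tgfbr1 and Tgfbr2 (Tgfbr1 f/f Tgfbr2 f/f), the tamoxifen-inducible Myh11-CreERT2 transgene and the mT/mG fluorescent reporter, and received 5 daily doses of 2 mg tamoxifen beginning at 11 weeks. The deletion and the tamoxifen dosing therefore lay on the KO side only, and the effects of receptor loss, Cre, reporter and tamoxifen cannot be told apart here. Per the study's methods, mutant strains had been crossed to the C57BL/6 background, only males were used because the Cre transgene is on the Y chromosome, and aortas were free of hemorrhagic lesions. Myh11 drives Cre in SMCs, so endothelial cells, fibroblasts and other cells of the wall kept their receptors.

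A LIM domain is a zinc-binding fold that joins proteins to one another. Cysteine-rich proteins such as Csrp1 and Csrp2 carry a pair of LIM domains and bind α-actinin and zyxin on actin filaments, and in the nucleus they work as cofactors of serum response factor (SRF) and GATA factors on smooth muscle genes. Csrp2 is known as the arterial smooth muscle member, Csrp1 as the member shared by smooth muscle and other tissues, and Csrp3 as the striated muscle member.

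Expression is given as the normalised count, which is the deposited count divided by the DESeq2 size factor of its library. Total counts per library ran from 19650983 to 28860598. The WT libraries are called WT-1 to WT-4 and the KO libraries KO-1 and KO-2, by the last number of their column code. A gene was called when the adjusted p-value (DESeq2 Wald test, Benjamini-Hochberg) was under 0.05 and the change exceeded 2-fold. The study counts the libraries of each group as separate mice, although the labels do not say so.

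The KO libraries differed from WT in more than the targeted cells. Mitochondrial genes took between 2.62% and 4.44% of the counts in the 4 WT libraries, 3.38% in KO-1 and 11.7% in KO-2. Smooth muscle markers (6 genes, defining markers Myh11 and Acta2) were abundant in every library, with a summed normalised count of 878299 to 1037960 in WT, 832799 in KO-1 and 992571 in KO-2. The sum of 12 cardiac muscle markers was 3116 to 4507 in WT, 30600.9 in KO-1 and 4769 in KO-2. Ryr2 alone gave 2291 to 2667 of this sum in WT and was lowest in KO-2, at 1368. The sum therefore hides changes of other markers in KO-2, which exceeded every WT library for 5 of the 12. The sum of 6 brown adipocyte markers was 380.1 to 586.6 in WT, 738.3 in KO-1 and 11980.7 in KO-2. Tgfbr1 and Tgfbr2 themselves, counted over the whole gene, overlapped between the groups, with 3858 to 5420 in WT against 5780 and 4568 in KO for Tgfbr1, and 5327 to 7042 against 5784 and 5937 for Tgfbr2. A count over the whole gene includes exons outside the floxed parts and RNA of cells without Cre, so it does not check the labels.

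Sequence upstream of the start site is shown for 4 members, namely Crip1 and Pdlim7, which were called lower, and Fhl1 and Fhl2, whose windows hold the SRF element of smooth muscle genes. RefSeq windows (GRCm38.p6, 250 bases before to 50 after a start) were matched for 9 of the 10 members (all but Csrp2) and gave 15 windows. Only the bases before the start that lay in no annotated exon of the gene are printed, 5′ to 3′ on the strand of the gene. Capitals mark every match, on either strand, to 4 motifs. These were the CArG box, which is the SRF element, the Smad-binding letters CAGAC, the TEAD element CATTCC, and the TATA box, searched as TATAAA.
Crip1, chr12:113151762-113152011, plus strand: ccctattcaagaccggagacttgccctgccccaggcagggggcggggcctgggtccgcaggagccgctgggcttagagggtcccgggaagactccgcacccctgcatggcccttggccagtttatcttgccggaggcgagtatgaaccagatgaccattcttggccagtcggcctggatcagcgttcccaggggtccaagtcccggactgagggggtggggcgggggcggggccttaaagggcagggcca
Pdlim7, chr13:55513447-55513603, minus strand: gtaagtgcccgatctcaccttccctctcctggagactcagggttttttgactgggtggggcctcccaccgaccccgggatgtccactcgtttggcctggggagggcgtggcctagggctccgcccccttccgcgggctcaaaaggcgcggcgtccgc
Fhl1 window 1, chrX:56779524-56779682, plus strand: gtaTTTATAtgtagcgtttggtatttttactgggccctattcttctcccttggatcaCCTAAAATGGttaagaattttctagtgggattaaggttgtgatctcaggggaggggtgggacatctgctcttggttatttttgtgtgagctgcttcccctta
Fhl2 window 2, chr1:43163962-43164211, minus strand: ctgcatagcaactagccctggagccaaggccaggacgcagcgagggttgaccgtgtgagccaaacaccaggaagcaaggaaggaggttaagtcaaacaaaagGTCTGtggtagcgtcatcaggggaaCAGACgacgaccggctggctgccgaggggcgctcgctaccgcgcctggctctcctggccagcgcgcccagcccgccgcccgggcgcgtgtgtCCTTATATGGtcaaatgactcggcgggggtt

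All 4 stretches lay inside the annotated span of their gene and upstream of a shorter transcript's start. The windows of Crip1 and Pdlim7 held none of the 4 motifs. A CArG box was found in 3 of the 15 member windows, compared with 1.63% of all 32851 windows in the table. These were Fhl1 window 1, 102 bases before the start, Fhl2 window 1, 96 bases before it, and Fhl2 window 2, 31 bases before it. CAGAC was present in 6 of the 15 windows against 49.6% of all windows, CATTCC in 1 (Pdlim3) against 14.7%, and TATAAA in 3 (Pdlim5, Fhl1 and Fhl2) against 13.6%. No 2 matches in a member window overlapped. A match describes the letters only, and no binding was measured.

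Csrp2 (ENSMUSG00000020186.7, GRCm38 chr10:110919789-110939622, plus strand) was the most reduced member. Its normalised count was 31972.6, 30090.5, 31835.7 and 29588.1 in the WT libraries in order, compared with 7769 for KO-1 and 5664 for KO-2. The WT libraries lay within a narrow band, with a coefficient of variation of 3.92%, and both KO libraries were far below the lowest of them. WT libraries averaged 30871.7 ± 1211 (SD, n = 4) and KO libraries 6717 ± 1489 (SD, n = 2), a log2 difference of -2.20 (SE 0.18). KO therefore held 21.8% of the WT mean, a 4.59-fold reduction. Taken library by library, KO-1 was at -1.99 and KO-2 at -2.44 on the log2 scale from the WT mean, so both showed it.

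Crip1 (ENSMUSG00000006360.11, chr12:113146316-113153879, plus strand) encodes cysteine-rich intestinal protein 1, a small protein of a single LIM domain. Its normalised count was 5355, 4842, 3611 and 3719 in WT and 1957 and 1661 in KO. WT-1 and WT-2 were higher than WT-3 and WT-4, and both KO libraries were below all of them. The WT mean of 4382 ± 854.7 (SD, n = 4) compared with 1809 ± 209.5 (SD, n = 2) in KO, a log2 difference of -1.28 (SE 0.21) or 2.42-fold, which left 41.3% of the WT mean.

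Crip2 (ENSMUSG00000006356.10, chr12:113140236-113145506, plus strand) is the paralogue of Crip1 and ends 809 bases before Crip1 begins. Its normalised count was 5013, 4819, 4360 and 3915 in WT and 3561 and 3694 in KO. Both KO libraries lay just below the lowest WT library. The log2 difference was -0.32 (SE 0.17), and the gene was not called. The 2 adjacent genes thus differed in the size of the reduction, and the ratio of Crip1 to Crip2 per exon length was 0.983, 0.925, 0.762 and 0.875 in WT against 0.506 and 0.414 in KO. That ratio was 1.93-fold lower in KO, with no overlap between the groups.

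Pdlim7 (ENSMUSG00000021493.15, chr13:55495795-55513676, minus strand) encodes Enigma, which joins a PDZ domain that binds actin-associated proteins to LIM domains. Its normalised count was 8981, 8949, 8004 and 7554 in WT and 4116 and 4060 in KO. The 2 KO libraries were nearly equal, and both were far below the lowest WT library. The WT mean of 8372 ± 708.8 (SD, n = 4) compared with 4088 ± 39.93 (SD, n = 2) for KO, giving a log2 difference of -1.03 (SE 0.16). The reduction of 2.05-fold was close to the 2-fold limit of a call. The call was lost, with the direction unchanged, when libraries were scaled by total counts (-0.99) and without WT-1 (-1.0).

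The other PDZ and LIM members showed smaller differences. Pdlim3 (ENSMUSG00000031636.7, chr8:45885461-45919548, plus strand), the actinin-associated LIM protein, had a normalised count of 7878, 8826, 9314 and 8861 in WT and 6525 and 7132 in KO. Both KO libraries lay below every WT library, and the log2 difference was -0.35 (SE 0.15). Pdlim5 (ENSMUSG00000028273.15, chr3:142239590-142395696, minus strand), known as Enigma homolog, had 6163, 6465, 6586 and 7623 in WT and 6809 and 4131 in KO. KO-1 lay inside the WT range and KO-2 below it. The log2 difference of -0.29 (SE 0.22) rested on KO-2, because without that library it was 0.03.

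**Figure D1:**
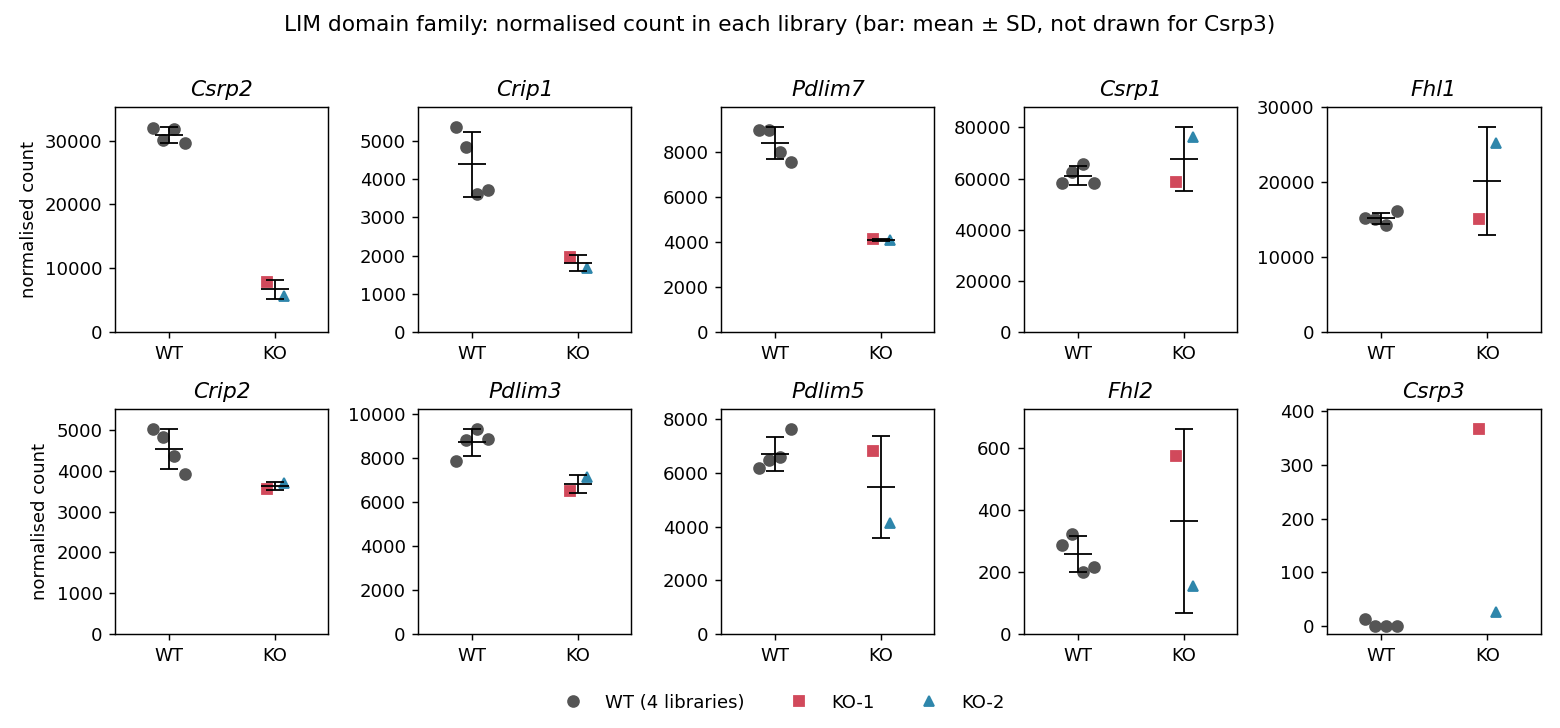
Normalised count (vertical axis, from 0) of each of the 10 members in the 4 WT libraries (grey circles), KO-1 (red square) and KO-2 (blue triangle); black bars are the group mean ± SD, left out for Csrp3. Csrp2, Crip1 and Pdlim7 have both KO libraries far below the WT group. The KO libraries lie apart from each other for Csrp1, Pdlim5, Fhl1, Fhl2 and Csrp3.

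Csrp1 (ENSMUSG00000026421.14, chr1:135720061-135752232, plus strand) did not share the reduction of Csrp2. Its normalised count was 58240, 62565.3, 65754.5 and 58163.4 in WT and 58653.8 and 76393.7 in KO. KO-1 fell within the WT range and KO-2 was above it. The log2 difference was 0.14 (SE 0.17), and it turned to -0.05 without KO-2 and to -0.08 when 15 contractile genes set the size factors. The ratio of Csrp2 to Csrp1 per exon length, a measure within each library that does not depend on its depth, was 0.495, 0.433, 0.436 and 0.458 in WT and 0.119 and 0.0668 in KO. It was 4.89-fold lower in KO, with both KO libraries well below every WT library.

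The coding sequences of Csrp1 and Csrp2 were 71.4% identical over 570 aligned bases. No stretch of 50 bases in Csrp1 or Csrp2 transcripts occurred in the transcripts of any other gene, so an exact match of that length could not be exchanged between the 2 genes. The same held for Csrp3, Crip1, Crip2, Pdlim5, Fhl1 and Fhl2, whereas Pdlim3 shared 1 such stretch with Ehd3 and Pdlim7 shared 19 of 5205 with Mir6945, a microRNA gene that lies within 68 of its exon bases on the same strand.

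Csrp3 (ENSMUSG00000030470.15, chr7:48830398-48848033, minus strand), the muscle LIM protein of heart and skeletal muscle, was close to the detection limit in WT. Its deposited count was 12 in WT-1, 0 in WT-2, WT-3 and WT-4, 485 in KO-1 and 21 in KO-2. Most Csrp3 reads of the series came from KO-1, and both KO libraries were above every WT library. The fitted log2 difference of 5.91 had an SE of 3.39 and was not called by DESeq2, whereas edgeR called it (5.93 with and 5.96 without its filter on low counts), and DESeq2 did so without WT-1 (10.10). Without KO-1 the difference was 2.98 and not called. KO-1 was also the library with the high cardiac sum given above. It exceeded all WT libraries for 12 of the 12 cardiac markers and KO-2 did so for 5. Myh6, the atrial myosin heavy chain, had 377.9, 78.1, 107.8 and 538.8 normalised counts in WT, 10312.6 in KO-1 and 113.1 in KO-2. Myl2, the ventricular light chain, was at 0 in all WT libraries, at 19.7 in KO-1 and at 377.4 in KO-2, and the slow myosin Myh7 was at 6.26 to 15.4 in WT, 40.2 in KO-1 and 194.2 in KO-2. These ventricular genes were thus highest in KO-2, unlike Myh6 and the cardiac sum. The sum of 11 skeletal muscle markers was 240.2 to 332.8 in WT, 1021 in KO-1 and 424.1 in KO-2, with the fast myosins Myh1 and Myh2 at 0 in every library. Ckm and Myl1 gave 608.5 and 294.4 of the KO-1 sum. KO-1 exceeded every WT library for 3 of the 11 markers and KO-2 for 4. The part of cardiac or skeletal RNA in the Csrp3 counts was not tested.

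FHL proteins consist of LIM domains alone and act as adaptors between the sarcomere, integrins and transcription factors. Fhl1 (ENSMUSG00000023092.16, chrX:56731787-56793346, plus strand) had a normalised count of 15188.8, 15095.1, 14314.1 and 16122.8 in WT and 15068.6 and 25206.4 in KO. KO-1 was inside the WT range and KO-2 was above every WT library. The log2 difference was 0.41 (SE 0.21), which became 0.00 without KO-2. KO-2 was also the library with the highest mitochondrial share, brown adipocyte sum and white adipocyte sum (6 genes, 2547 to 4894 in WT, 5392 in KO-1 and 37810.3 in KO-2), and their part in the Fhl1 value was not tested.

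Fhl2 (ENSMUSG00000008136.14, chr1:43123074-43196984, minus strand), which binds SRF and β-catenin and is abundant in heart, was a member whose KO libraries lay on opposite sides of WT. Its normalised count was 287.8, 322.4, 200.7 and 215.1 in WT, 572.9 in KO-1 and 153.6 in KO-2. KO-1 was above every WT library and KO-2 below every WT library. The pooled log2 difference of 0.51 (SE 0.42) therefore described neither. Without KO-2 it was 1.17 and called, and without KO-1 it was -0.74. Like Csrp3, Fhl2 was highest in the library with the highest cardiac sum, and this was not tested further.

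**Figure D2:**
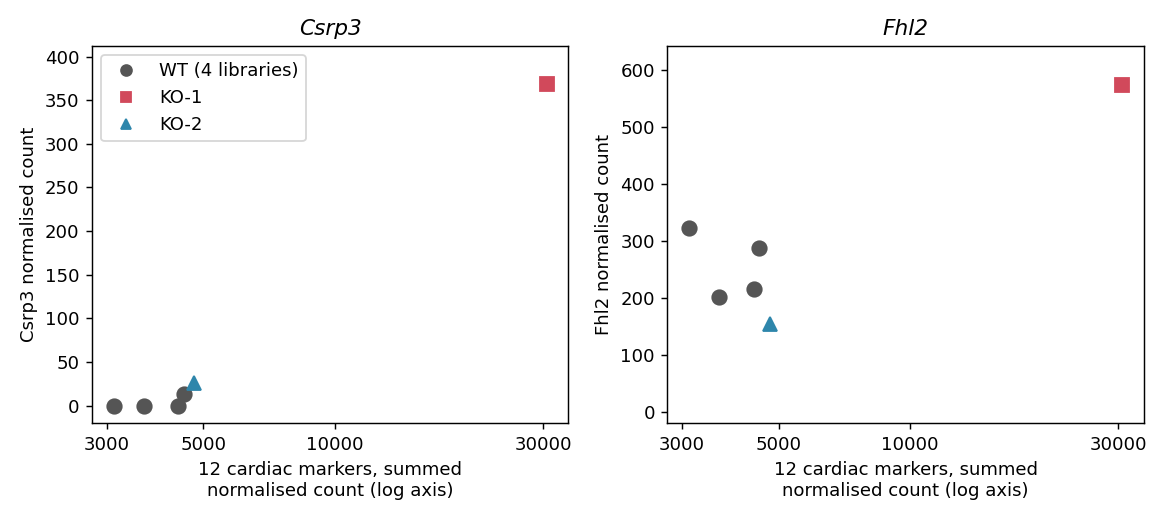
Normalised count of Csrp3 (left) and Fhl2 (right) against the summed normalised count of 12 cardiac muscle markers in the same library (horizontal log axis), with WT libraries as grey circles, KO-1 as a red square and KO-2 as a blue triangle. KO-1 lies alone at a cardiac sum of 30600.9 and has the highest count of both genes, 368 for Csrp3 and 572.9 for Fhl2. Ryr2 alone gives 2291 to 2667 of the sum in WT and 1368 in KO-2.

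Over the family, 3 of 10 members were called and all 3 were lower in KO. Over all 17070 genes tested, 5.64% were called in either direction, 2.1% were called lower, and 10.4% passed the adjusted p-value alone. Nothing is read from the member count, since the comparison chose the family. Both KO libraries lay below every WT library for 5 members (Csrp2, Crip1, Crip2, Pdlim3 and Pdlim7), compared with 16.4% of all genes tested, and above every WT library for 1 member (Csrp3), compared with 17.9%. The other 4 overlapped or split. The median log2 difference of the 10 members was -0.31, and that of all genes tested was 0.01. Over 14 alternative fits of the same libraries, the log2 difference of Csrp2 ran from -2.44 to -1.98, that of Crip1 from -1.50 to -1.15 and that of Pdlim7 from -1.24 to -0.99.

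**Figure D3:**
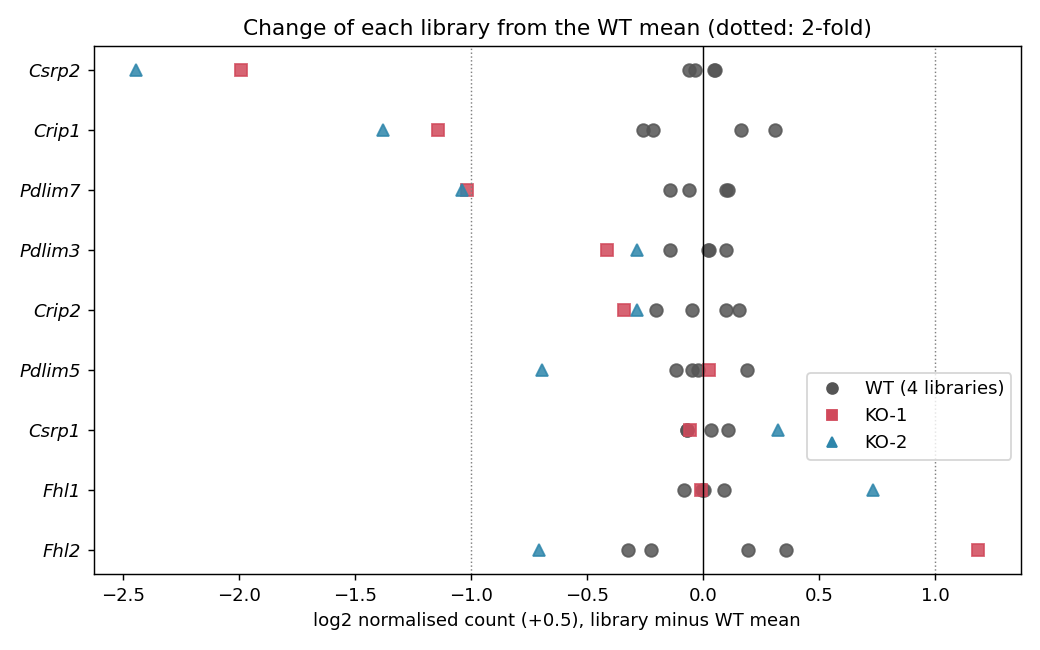
Log2 normalised count (pseudocount 0.5) of each library less the WT mean, for 9 members ordered by the fitted difference (Csrp3 is left out because 3 WT libraries are at 0); dotted lines mark 2-fold. Both KO libraries lie at or beyond the 2-fold line for Csrp2, Crip1 and Pdlim7, whereas for Fhl2 KO-1 is at 1.19 and KO-2 at -0.71; the sign of the pooled difference of Csrp1 flips when contractile genes set the scaling (-0.08).

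Levels of different genes are compared per exon length, as normalised counts per kilobase of merged exons scaled so that the genes of a library sum to 1000000. In WT, Csrp1 was the most abundant member at 4417 ± 414.1 (SD, n = 4), above 99.96% of genes. Csrp2 followed at 2004 ± 81.44, above 99.92%. Fhl1 came next at 577.3 ± 53.6, and these 3 did not overlap one another in any WT library. Crip2 (303.1 ± 21.79), Crip1 (269.4 ± 40.82), Pdlim7 (243 ± 15.37) and Pdlim3 (239.7 ± 28.92) formed a middle group, in which each neighbour in the order overlapped the next. Pdlim5 (107.1 ± 16.07), Fhl2 (19 ± 4.083) and Csrp3 (0.159 ± 0.318) stood apart below them.

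In KO the level of Csrp1 was 4902 ± 80.24 (SD, n = 2), that of Fhl1 756.4 ± 120.9 and that of Csrp2 457.7 ± 189.6. Csrp2 thus passed from the second to the third place, behind Fhl1, and had a level of 591.7 in KO-1 and 323.6 in KO-2 against 1895 to 2087 in WT. By the KO mean, Crip1 passed from the fifth to the seventh place, at 116.1 ± 36.47. Pdlim7 kept its place, at 122.1 ± 25.81. In KO-1 Crip1 was at 141.9 and Pdlim7 at 140.4, whereas in KO-2 they were at 90.35 and 103.9, so their order differed. Their places in WT depended on the length used. With the longest transcript as the length, Pdlim3 was at 279.6, Crip1 at 272.4 and Pdlim7 at 264.5 in WT. Nothing is read from these moves of place. The scale mattered for the smaller differences. Per exon length, KO-1 overlapped the WT range for Crip2 (280.5 against 278.8 to 330.7) and Pdlim3 (209.6 against 197 to 257.6), so that only Csrp2, Crip1 and Pdlim7 were below every WT library on both scales. Conversely, both KO libraries were above every WT library for Csrp1 (4958 and 4845 against 3832 to 4785) and Fhl1 (670.9 and 841.9 against 526.4 to 649) on this scale and not on the scale of normalised counts.

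The make-up of the family changed accordingly. Csrp1 made up 51.7% to 55.9% of the summed level of the 10 members in WT, 68.9% in KO-1 and 72.7% in KO-2. Csrp2 made up 23.6% to 25.6% in WT, 8.23% in KO-1 and 4.86% in KO-2. Fhl1 took 6.41% to 7.83% in WT, 9.33% in KO-1 and 12.6% in KO-2. The summed level itself was 7409 to 8555 in WT and 7193 and 6664 in KO, below the WT range in both KO libraries.

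**Figure D4:**
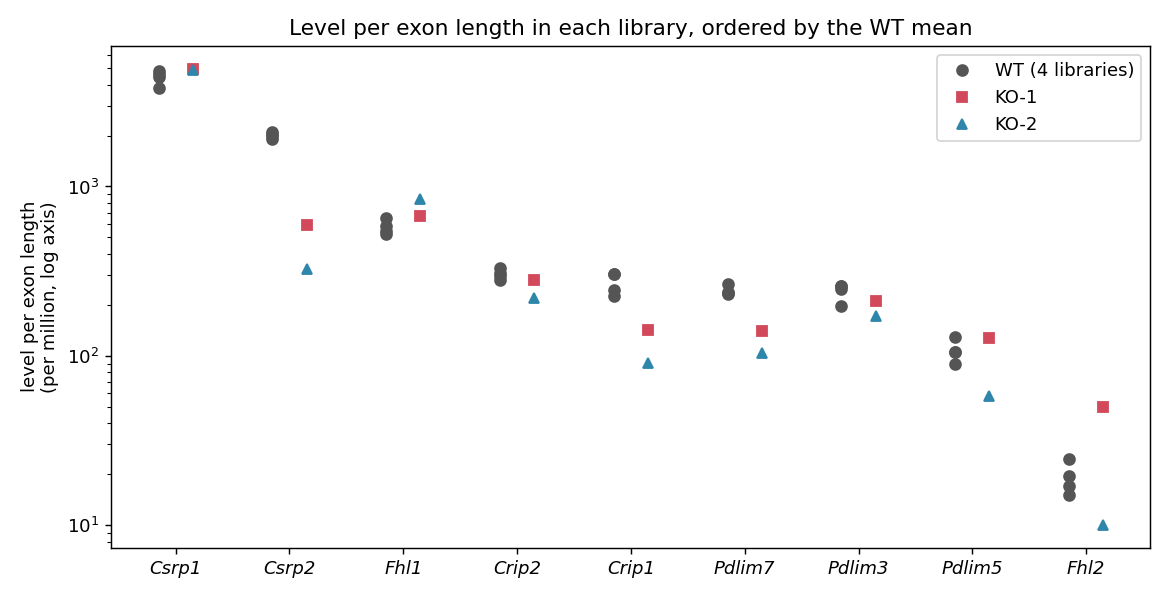
Level per exon length (log axis) of 9 members in each library, ordered by the WT mean, with WT libraries as grey circles, KO-1 as a red square and KO-2 as a blue triangle; Csrp3 is left out because 3 WT libraries are at 0. Csrp2 is second only to Csrp1 in WT and falls behind Fhl1 in both KO libraries.

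Ratios to the smooth muscle genes Myh11 and Acta2 set the members against the tissue's own SMC RNA. Csrp2 over Myh11 was 0.424 ± 0.0496 (SD, n = 4) in WT and 0.0899 and 0.0551 in KO, a 5.84-fold reduction. Csrp2 over Acta2 was 0.0789 ± 0.00532 in WT and 0.0239 and 0.015 in KO, 4.05-fold lower. The corresponding reductions against Myh11 were 3.15-fold for Crip1, 2.65-fold for Pdlim7 and 1.18-fold for Csrp1. No KO library overlapped WT for these ratios, that of Csrp1 to Myh11 included (0.753 and 0.825 against 0.849 to 1.03), and Myh11 itself had a higher normalised count in both KO libraries than in any WT library. In whole aorta, fewer cells that make an RNA and less of it per cell cannot be told apart, and a ratio to Myh11 does not separate them where a gene is also made by other cells. Within the PDZ and LIM group, Pdlim7 over Pdlim3 was 1.03 ± 0.146 in WT and 0.67 and 0.604 in KO, below every WT library. Pdlim7 over Pdlim5 was 2.31 ± 0.379 in WT and 1.11 and 1.80 in KO, and KO-2 came close to the lowest WT value of 1.81.

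**Figure D5:**
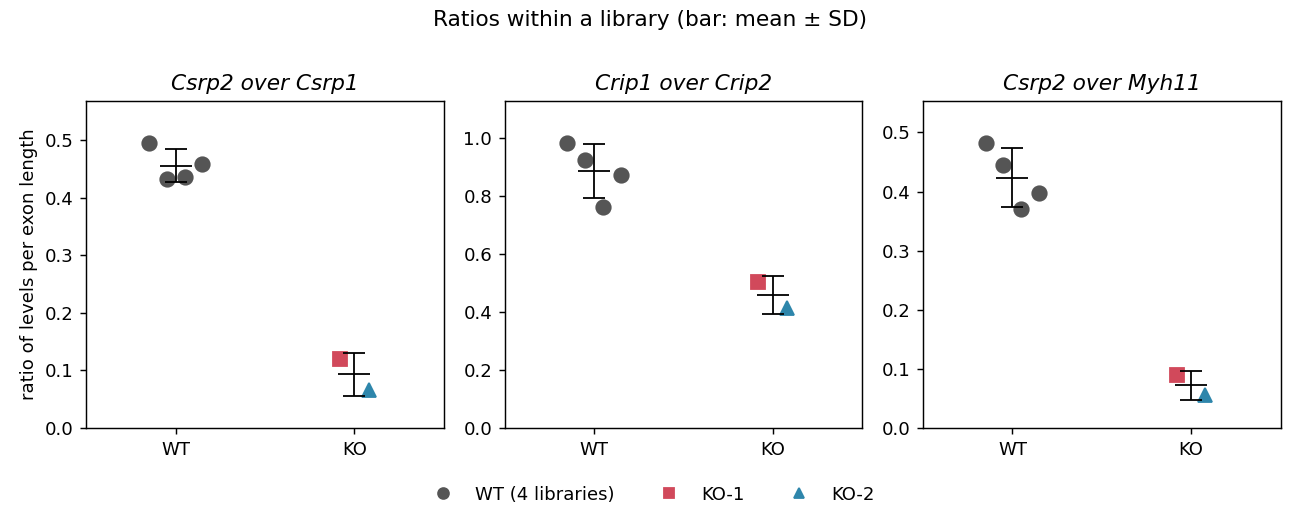
Ratio of levels per exon length within each library (vertical axis, from 0) for Csrp2 over Csrp1, Crip1 over Crip2 and Csrp2 over Myh11; points are libraries and black bars the group mean ± SD (4 WT, 2 KO). In all 3 panels both KO libraries lie below every WT library, with Csrp2 over Csrp1 at 0.119 and 0.0668 against 0.433 to 0.495.

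Markers of the other cells of the wall were also summed. The normalised counts came to 12628.4 to 22547.4 in WT and 32120 and 30872.9 in KO for 7 endothelial markers, and 108630 to 121918 against 137333 and 162356 for 6 fibroblast markers. They were 4959 to 5733 against 9520 and 10755.2 for 6 macrophage markers, and 228.1 to 451.4 against 899.2 and 2460 for 6 mesothelial markers. The 7 lymphocyte markers summed to 20.9 to 79.1 in WT and to 101.7 and 370 in KO. Both KO sums were thus above every WT sum for each of these 5 lists. Gene by gene, 4 of 7 endothelial, 2 of 6 fibroblast, 6 of 6 macrophage and 6 of 6 mesothelial markers passed the adjusted p-value (DESeq2) higher in KO, and 0 of 6 tested lymphocyte markers did (0 with edgeR), with 3 at an unadjusted p under 0.05. With edgeR and its filter, 3 of 7 endothelial, 1 of 6 fibroblast, 3 of 6 macrophage and 3 of 6 mesothelial markers passed. Egfl7, an endothelial marker, was at -0.48 (adjusted p = 0.131) with both KO libraries below every WT library. The part of such cells in the family's values was not tested. By contrast, the sums of the 6 smooth muscle markers were lower than every WT library in KO-1 alone.

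SMC contractile genes were set beside the members. The called members were singled out by their calls, so a contrast between them and a whole list is partly built in. Of 15 genes, 0 passed the adjusted p-value (DESeq2), 6 had an unadjusted p under 0.05, and edgeR passed 0 as well. Their median log2 difference was 0.25. Myh11 was at 0.36 (adjusted p = 0.199), Acta2 at -0.16 (adjusted p = 0.616), Tagln, which encodes SM22α, at -0.41 (adjusted p = 0.0977), and the calponin gene Cnn1 at -0.38 (adjusted p = 0.124). These p-values do not show that the contractile genes were unchanged. Both KO libraries lay below every WT library for Tagln, Cnn1 and Smtn. They lay above every WT library for Myh11, Actg2, Tpm1, Des and Synpo2, and the rest of the list overlapped. Over all genes tested, the shares were 16.4% below and 17.9% above.

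Known TGF-β response genes were set beside the family, in a list chosen with earlier results of these data known. Of 13 genes, 6 were called lower, 1 was called higher and 6 did not pass, with a median log2 difference of -0.52. Pmepa1, a feedback inhibitor, fell by 1.45 on the log2 scale (adjusted p = 5.76e-14, DESeq2), and its relative Ldlrad4 by 1.27 (adjusted p = 1.44e-09). The oxidase gene Nox4 fell by 1.42 (adjusted p = 1.77e-09). The matricellular genes Ccn1 and Ccn2 fell by 1.42 and 1.28 (adjusted p = 4.99e-05 and 7.44e-06). Thrombospondin 1 (Thbs1) rose by 2.60 (adjusted p = 2.52e-12). The 6 that did not pass were Smad7, Smad6, Skil, Tgfbi, Ltbp2 and Bhlhe40. Among them, the feedback genes Smad7 (-0.13, adjusted p = 0.756, DESeq2), Smad6 (0.07, adjusted p = 0.916) and Skil (-0.18, adjusted p = 0.75) overlapped between the groups.

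Among 40 other LIM domain genes of the cytoskeleton, 39 were tested (Fhl5 was not), 4 passed the adjusted p-value lower in KO, 5 passed higher and 30 did not pass. Their median log2 difference was -0.03. With edgeR and its filter, 7 of 39 passed. Over all genes tested with DESeq2, 10.4% passed the adjusted p-value and 5.64% were called. Nothing about LIM genes as a set is read from these counts. The called LIM genes were Pdlim1 and Ablim3. Pdlim1 is another PDZ and LIM gene, and its protein binds α-actinin. Pdlim1 had a normalised count of 5488, 5118, 4983 and 6223 in WT and 2289 and 2321 in KO. It fell in both KO libraries by a log2 difference of -1.24 (SE 0.17, adjusted p = 1.66e-11, DESeq2), which lay between Crip1 and Pdlim7. Ablim3, an actin-binding LIM protein at low abundance, had 88.97, 99.68, 88.88 and 45.94 in WT and 193.5 and 317.1 in KO and rose by 1.65 (SE 0.38, adjusted p = 0.000421). It was not called under the replicate block or without KO-2, whereas Pdlim1 was called in every fit.

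The remaining LIM genes that passed the adjusted p-value were under 2-fold and are named here after their values were seen. Limch1 fell by 0.78 (adjusted p = 5.32e-06, DESeq2), Lmcd1, a repressor of GATA6, by 0.69 (adjusted p = 0.00558) and Wtip by 0.99 (adjusted p = 0.0128). The focal adhesion gene Pxn rose by 0.92 (adjusted p = 0.000677), Lmo7 by 0.96 (adjusted p = 0.0101), Lasp1 by 0.82 (adjusted p = 1.05e-05) and Tes by 0.70 (adjusted p = 0.000194). Zyxin (Zyx), a binding partner of the cysteine-rich proteins, was at -0.35 (adjusted p = 0.0959) and did not pass.

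Among 9 binding partners and transcription cofactors of the family, 2 passed lower, 2 passed higher and 5 did not pass (Srf, Myocd, Mrtfa, Mrtfb and Actn2). The genes under 2-fold are again named after their values were seen. Actn1, α-actinin 1, the actin cross-linker to which Csrp and Pdlim proteins bind, had 47251.5, 46968.2, 52951.3 and 48710.7 normalised counts in WT and 28389.8 and 28039.7 in KO. It fell by 0.80 (SE 0.14, adjusted p = 2.53e-06, DESeq2), with both KO libraries far below WT. Actn4 fell by 0.61 (adjusted p = 0.0407). Srf was at -0.19 (adjusted p = 0.531) and its cofactor Myocd at 0.19 (adjusted p = 0.768). Gata6, the GATA factor of vascular smooth muscle, rose by 0.67 (adjusted p = 0.0027). Gata4, the only called gene of the list, rose by 1.99 (SE 0.49, adjusted p = 0.00128) from a low level of 39.3 ± 21.6 (SD, n = 4) to 156.9 ± 45.9 (SD, n = 2).

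The nearest protein-coding genes on each side of the called members were examined as well, apart from Crip2, given above. Only genes whose normalised count averaged 100 or more were considered, so nearer genes of lower count would be passed over. Pawr, 2506 kilobases before Csrp2, was higher in KO in both libraries, with a log2 difference of 0.61 (adjusted p = 0.0101, DESeq2). Zdhhc17, which begins 2157 bases after Csrp2 ends, was higher in KO, with a WT mean of 494.8 ± 55.14 (SD, n = 4) against 804.3 ± 172.7 (SD, n = 2), a log2 difference of 0.70 (adjusted p = 0.0187, DESeq2). The neighbours of Pdlim7, Dbn1 and Dok3, were at -0.13 (adjusted p = 0.726) and 0.12 (adjusted p = 0.88). Zfp386, 2894 kilobases after Crip1, was at 0.06 (adjusted p = 0.928, DESeq2).

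Genes with the pattern most like Csrp2 were ranked by Euclidean distance over the 6 libraries, on the log2 normalised count less the WT mean, among 11446 genes whose normalised count averaged 100 or more. The 5 nearest were 1700120C14Rik (distance 0.406, log2 difference -2.26), 2210407C18Rik (0.454, -2.37), 2900089D17Rik (0.459, -2.37), the ubiquitin ligase gene Wwp2 (0.469, -1.97) and Acan (0.526, -2.39), which encodes aggrecan. Wwp2 was abundant, at a mean normalised count of 15764.6 in WT and 4026 in KO. The ranking describes likeness over 6 libraries and carries no test.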

How the data were processed

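Total RNA of mouse thoracic aorta was sequenced as 4 WT and 2 KO libraries. The authors trimmed reads with Trim Galore, aligned them to GRCm38 with HISAT2 and quantified GENCODE M15 gene models with StringTie. The deposited table gives an estimated count for each gene, without normalisation; the values were whole numbers already and were not rounded further. How coverage became whole numbers, and whether counting used strand, are not given in the sources used here. Column codes, not sample titles, gave the group of each column, and the match of codes to WT and KO was inferred from them.

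The table of 52636 genes (27151 at 0 in all libraries) was fitted with DESeq2 1.42.0 in R 4.3.3 (Wald test on all genes with default settings and no term beside group). Genes with adjusted p under 0.05 and over 2-fold were called, as in the study. edgeR 4.0.16 (quasi-likelihood) and other scalings, filters and left-out libraries were alternatives. The fit was tested on simulated data, in which the share of unchanged genes among those passing the adjusted p-value exceeded its threshold, so adjusted p-values here may be too small. Gene spans and exons came from GENCODE M21 on GRCm38 (52489 identifiers matched, 147 did not), and promoters from RefSeq (GRCm38.p6). Totals of 19650983 to 28860598 counts limit the precision of low genes.

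The members and all gene lists were chosen with earlier results of these data known: other LIM domain genes, binding partners and cofactors, contractile genes, TGF-β response genes and 10 cell type marker lists. From each of these, cell type lists apart, every called gene is named, except 1 that is not reported here. The 5 genes most like Csrp2 were taken by distance. No list or score over the members was tested.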

Additional observations from a re-analysis of the deposited data

Results flagged for a closer look

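Outlying libraries were looked for in 19 values with Dixon's ratio over the 4 WT libraries, which marks about 1 in 20 values by chance. The Csrp3 normalised count stood out in WT-1, at 13.2 against 0 in the other WT libraries. With those at 0, the ratio is 1.0 for any count above 0 in WT-1. The mark thus followed from the zeros, and the chance rate does not apply to it. The value in WT-1 corresponds to 12 deposited counts. WT-1 also had the highest cardiac muscle marker sum of the WT libraries, 4507 against 3116 to 4378, but WT-4, at 4378, had 0 Csrp3 counts.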

How the results depend on the processing

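Csrp2 and Crip1 met the rule for a call in all 14 alternative fits, which use the same libraries that picked the family and so are no support for it. Over all genes, 962 were called, 633 with edgeR and its filter and 636 to 1284 when 1 library was left out (lowest without KO-2, highest without KO-1). Of these, 358 were lower, 230 with edgeR without a filter and 283 to 560 with 1 library left out. Of the calls, 62.8% were higher in KO, but 48.1% without KO-2. With size factors set by 15 contractile genes, an alternative chosen after seeing the data, 41.3% of 925 were higher, 543 genes were called lower, 4 other LIM domain genes were called in place of 2, the median of all genes was -0.19 and Csrp1 turned to -0.08. With 1 library left out, 3 to 4 members and 2 to 6 other LIM domain genes were called (6 without KO-1, 4 without WT-3 and without WT-4).

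Leaving out 1 library moved Csrp1 between -0.05 and 0.32, Pdlim5 between -0.70 and 0.03 and Fhl2 between -0.74 and 1.17 (log2 difference), and turned their direction without KO-2 for Csrp1 and Pdlim5 and without KO-1 for Fhl2. The longest transcript as the length gave WT levels of 3789 for Csrp1 and 2521 for Csrp2. The labels number the replicates of both groups. With the replicate number as a replicate block, 561 genes were called and Fhl2 stood at -0.03. Deviations of same-numbered libraries from their group means correlated at -0.13 (number 1) and -0.02 (number 2). The deviations of the 2 KO libraries mirror each other by construction. These correlations therefore cannot decide whether same-numbered libraries were paired. The causes of these shifts were not tested. Low counts limit Csrp3 most, at 12 counts in 1 WT library and 0 in the other WT libraries.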
